A study of Mus musculus with 10 samples.

Results

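The miRNAs described here are miR-10a, miR-10b, miR-196a and miR-196b, whose genes lie among the Hox genes. They were chosen by name, guide strands only, and each is read by 1 of the 655 probes of the array, so that 4 of 655 probes are described. Hepatic miRNA was measured on single-colour bead arrays in 5 wild-type mice (WT) and 5 LivPGC-1α mice. LivPGC-1α mice carry a human PGC-1α transgene under Apolipoprotein E promoter sequences, and their controls are WT mice without it. All animals were FVBN mice aged 4 months, and the study states that they had been fasted overnight. Each array holds whole-liver RNA of 1 labelled sample, taken here as 1 mouse. The labels do not say that these are separate mice, and otherwise the p-values would cover technical spread alone. All arrays lay on 1 chip, with WT on its first 5 sections and LivPGC-1α on the others, so that chip section and genotype cannot be told apart.

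Hox genes set positional identity along the body axis, and their clusters also encode miRNAs, which repress messages that pair with their seed. The miR-10 genes lie near the Hox4 group and the miR-196 genes near the Hox9 and Hox10 groups. miR-196 is known for cleaving Hoxb8 mRNA in the mouse, and miR-10b for repressing HOXD10 in human breast cancer cells. The comparison asks whether liver PGC-1α, a coactivator of mitochondrial and gluconeogenic genes, comes with other levels of these miRNAs.

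The mature sequences, from RefSeq on GRCm38.p6, are shown because each pair shares its seed and is told apart by a single base, so that 4 probes must separate near-identical molecules. Capitals mark the seed, bases 2 to 8 from the 5′ end.
miR-10a: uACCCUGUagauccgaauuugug
miR-10b: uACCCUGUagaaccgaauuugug
miR-196a: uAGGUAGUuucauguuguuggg
miR-196b: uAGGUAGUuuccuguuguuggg
miR-10a and miR-10b are identical at 22 of 23 bases and differ by U12A, where the miR-10a base comes first and the position counts from the 5′ end. miR-196a and miR-196b are identical at 21 of 22 bases and differ by A12C, with the miR-196a base first. Neither difference touches the seed. How far each probe also reads its near-identical partner was not tested. Among 1679 mature mouse miRNAs of the table, each seed occurs in 2, the members of its own pair.

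miR-10a lies at chr11:96317186-96317208 on the plus strand, within Hoxb3, with Hoxb5 and Hoxb4 as the nearest other Hox genes. miR-10b lies at chr2:74726074-74726096 on the plus strand, within the annotated spans of Hoxd3 and Hoxd4. miR-196a comes from a pair of genes, at chr11:96265187-96265208 between Hoxb13 and Hoxb9, within the annotated gene Gm51876, and at chr15:102973365-102973386 between Hoxc10 and Hoxc9, both on the plus strand. Its mature sequence is the same from both, so that the probe cannot tell them apart. miR-196b lies at chr6:52230129-52230150 on the minus strand between Hoxa9 and Hoxa10, within the annotated gene Gm52902. The array files assign the 4 probes to the same chromosomes and name no genome build.

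Between 423 and 482 of 655 probes were detected per array, at a detection p of at most 0.01 against the array's negative controls. The hepatocyte probes (miR-122, miR-192, miR-194, miR-148a and miR-802) were detected, 5 of 5, on all arrays, as the tissue label calls for. WT 1 stood apart in striated muscle probes, described with miR-10b. WT 3 stood apart in 13 X-linked testis probes, whose summed signal ran from 14916 to 50452 in WT, with WT 3 highest, and from 15944 to 16932 in LivPGC-1α. The values below are quantile-normalized signals, in which arrays get the same value at the same rank, so that some numbers recur. Brightness depends on the probe as well as on the amount of RNA, so levels of different miRNAs are not set against each other.

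miR-10a was the only one of the 4 miRNAs whose groups did not overlap, with higher signals in LivPGC-1α livers that did not pass the test across all probes. Its signal was 23311, 24241, 25307, 22043 and 23074 on WT 1 to WT 5. In LivPGC-1α it was 25726, 27005, 27005, 28089 and 27725 on animals 1 to 5. All 5 LivPGC-1α values thus lay above all 5 WT values, with WT 3 and LivPGC-1α 1 as the closest. WT livers averaged 23595 ± 1236 and LivPGC-1α livers 27110 ± 905 (both SD, n = 5). In limma the ratio was 1.15-fold (95% confidence interval 1.08 to 1.23), a log2 change of 0.20 ± 0.04 (SE), which did not pass after adjustment over all 513 tested probes (adjusted p = 0.0864), although it was the 4th smallest p among them. The exact two-sided permutation test of this probe alone gave p = 0.00794, the smallest that 5 against 5 animals allow. This value follows from the lack of overlap and is no separate support for it. In bulk liver, more RNA per cell and more cells of a type that holds it cannot be told apart.

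Over all tested probes, 4.87% had groups that did not overlap, in either direction. Among the cell type marker probes, only miR-150, a miRNA of lymphocytes, also had groups that did not overlap. Its signals were 14611 to 19332 in WT and 19913 to 23881 in LivPGC-1α, with a log2 change of 0.40 ± 0.08 (SE, limma, adjusted p = 0.0864). Among LivPGC-1α livers it was lowest on animal 4, where miR-10a was highest. Among WT livers miR-150 was lowest on WT 5 and miR-10a on WT 4, and miR-150 was highest on WT 2 and miR-10a on WT 3. At an unadjusted p under 0.05, but with overlapping groups, stood miR-463 of the testis list (0.17 ± 0.07 SE, limma, adjusted p = 0.312), miR-486 of the erythroid list (−0.25 ± 0.11 SE, adjusted p = 0.327) and miR-802. Of the 6 leukocyte probes, all detected on all arrays, 4 lay above 0, 1 was higher at an unadjusted p under 0.05 and 0 were called, and their summed signal overlapped, at 119657 to 146114 in WT and 130909 to 148019 in LivPGC-1α. Of the 5 hepatocyte probes, 4 lay above 0 and miR-802 was at −0.35 ± 0.15 (SE, limma, adjusted p = 0.327), with summed signals of 172757 to 181754 in WT and 176411 to 180282 in LivPGC-1α. Of all 513 tested probes, 292 lay above 0 and 221 below. The part of cell composition in the miR-10a signal was not tested.

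Of the 4 miRNAs, 0 were called at an adjusted p under 0.05, against 0.39% of all tested probes (0.195% higher). At an unadjusted p under 0.05, 1 of 4 was higher and 0 were lower, against 10.5% and 3.9% of all tested probes and 14.4% in both directions. Groups did not overlap, with LivPGC-1α higher, for 1 of 4, against 3.9% of all tested probes and 4.87% both ways. A count of 1 in 4 is too small to be read against these shares.

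**Figure D1:**
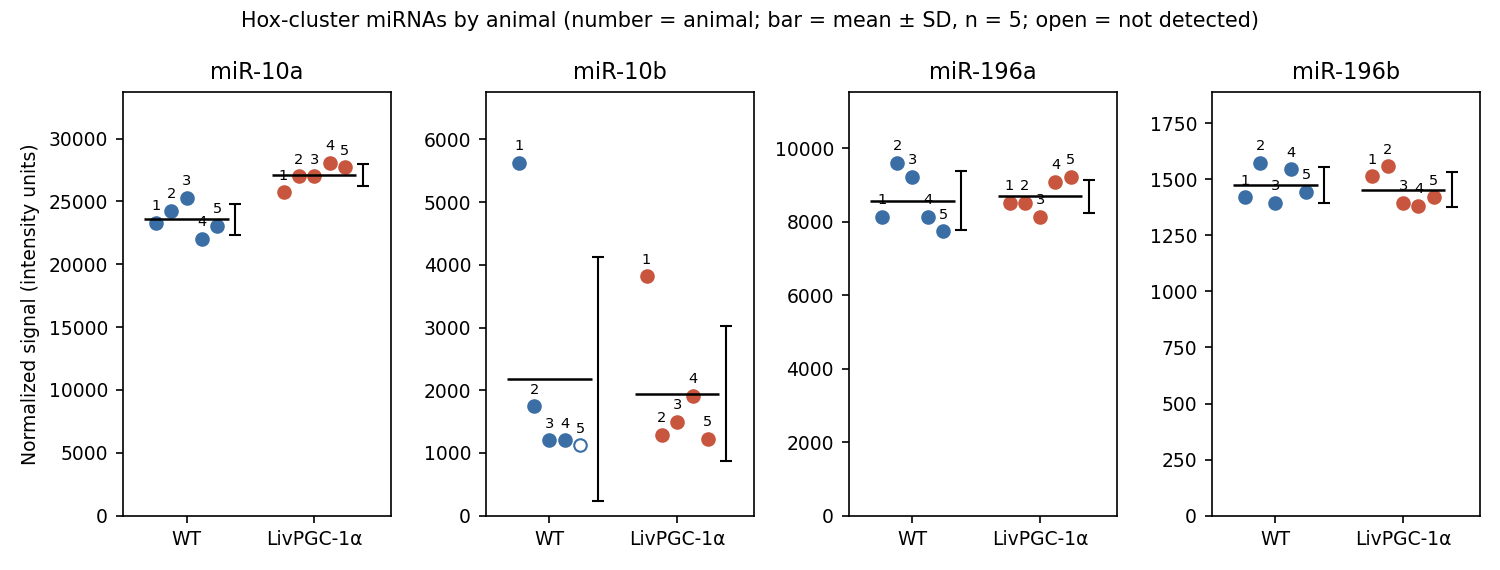
Quantile-normalized signal (intensity units, linear axis from 0) of the 4 Hox-cluster miRNAs in each animal, WT in blue and LivPGC-1α in red, with the mean and SD (n = 5) in black and an open circle where the probe was not detected. The LivPGC-1α values of miR-10a, from 25726 to 28089, all lie above WT, and miR-10b is high on WT 1 and LivPGC-1α 1.

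By brightness, miR-10a ranked between 81 and 92 of 655 probes on WT arrays and between 70 and 79 on LivPGC-1α arrays. Quantile normalization sets each value from this rank, so that the ranks restate the separation above and are no separate support for it. Before normalization the groups did overlap, at 19315 to 26759 in WT and 24683 to 28725 in LivPGC-1α, with 2 WT arrays inside the range of the transgenic ones. The change kept its sign in all 26 alternatives, from 0.17 to 0.32. It passed when each array was scaled by its 75th percentile of all probes (0.32, limma, adjusted p = 0.00673), a scaling that calls 80 probes, and without WT 3 (0.23, adjusted p = 0.0479). Without WT 1, WT 3 and WT 5, the arrays farthest from their group means and left out after the data had been seen, it was 0.23 (adjusted p = 0.301). Without normalization the adjusted p was 0.719. With a linear term for chip section, which largely follows genotype, the change was 0.17 ± 0.09 (SE, adjusted p = 0.696).

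**Figure D2:**
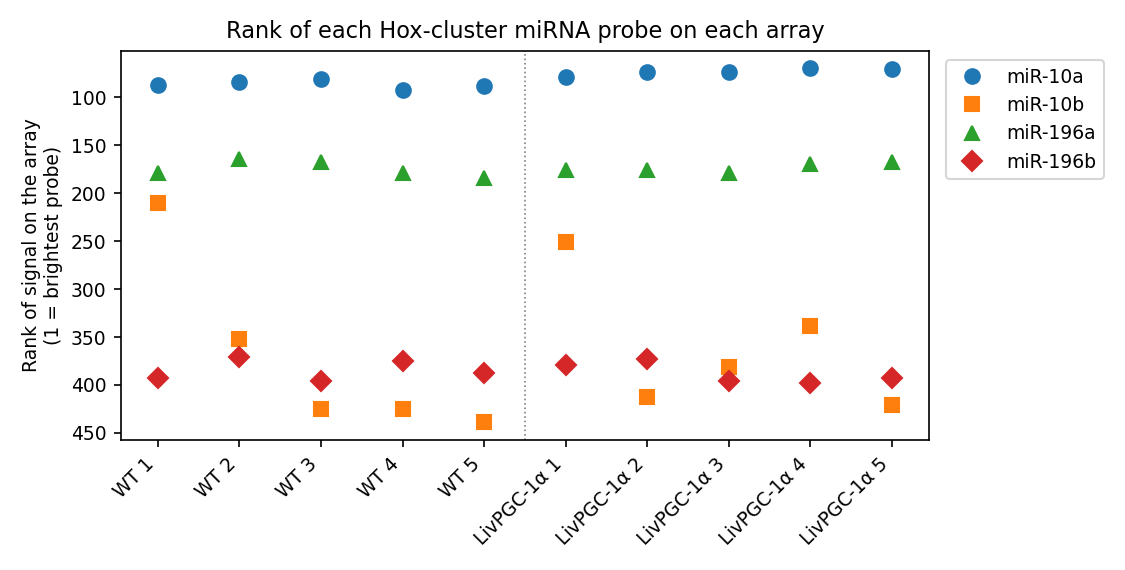
Rank of each probe's signal on each array (vertical axis, 1 is the brightest of 655 probes, axis turned so that bright is up), WT arrays left and LivPGC-1α arrays right of the dotted line. miR-10a moves from ranks 81 to 92 in WT to ranks 70 to 79 in LivPGC-1α, and miR-10b ranges from 210 to 439.

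miR-10b, which differs from miR-10a by a single base, overlapped between the groups and varied widely between animals. Its signal was 5630, 1744, 1205, 1205 and 1121 on WT 1 to WT 5. In LivPGC-1α animals 1 to 5 it was 3814, 1289, 1494, 1909 and 1229. WT 1 and LivPGC-1α 1 were high, and the other 8 arrays lay between 1121 and 1909, so that the groups overlapped. The probe was detected on 4 of 5 WT and 5 of 5 LivPGC-1α arrays. On WT 5 its detection value of 0.0256 missed the limit of 0.01, and its signal was below the lowest detected signal of that array, 1218.

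WT 1 exceeded the median of the other WT arrays 4.67-fold, and LivPGC-1α 1 that of the other LivPGC-1α arrays 2.74-fold. miR-10b averaged 2181 ± 1944 in WT livers and 1947 ± 1077 in LivPGC-1α livers (both SD, n = 5), with a log2 change of 0.02 ± 0.49 (SE, limma, adjusted p = 0.998, exact permutation p = 0.952). The 95% confidence interval of the ratio ran from 0.475 to 2.17, so that large changes of miR-10b in either direction lay within what these arrays allow. The sign of this change depended on single animals. It was 0.45 without WT 1, −0.26 without LivPGC-1α 1 and 0.17 without both, a pair left out after the data had been seen.

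The spread of miR-10b about its group means was 0.84 on the log2 scale, the 10th largest of 513 tested probes. That of miR-10a was 0.06, rank 415, that of miR-196a 0.11, rank 254, and that of miR-196b 0.08, rank 363. The 4 Hox-cluster miRNAs therefore ranged from among the most to among the less variable probes.

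On WT 1 the brightness of miR-10b came together with striated muscle miRNAs. The 7 striated muscle probes summed to 99224 on WT 1, whereas their sums lay between 6650 and 8219 on the other 9 arrays. The number of these probes detected was 6 on WT 1 and between 1 and 4 elsewhere, and miR-208a was detected on no array. miR-206, found in skeletal muscle, had a signal of 32195 on WT 1, and miR-133a one of 33337. miR-1 reached 2770 there, and miR-208b did not follow, at 1367 on WT 1 and 1465 on WT 2. On LivPGC-1α 1, where miR-10b was also high, the summed muscle signal was 7095, below the 7205 to 7509 of the other 4 LivPGC-1α arrays. The 4 erythroid probes also had their highest sum on WT 1, at 126222, with 100281 to 112733 elsewhere and 104829 on LivPGC-1α 1. The part of muscle or blood RNA in the miR-10b signal of WT 1 was not tested.

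**Figure D3:**
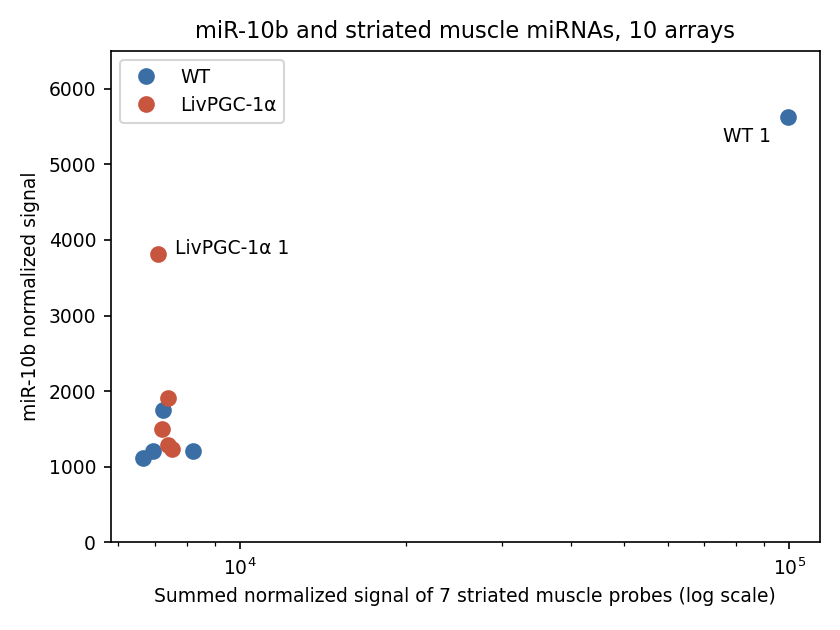
Normalized signal of miR-10b (vertical axis, linear) against the summed normalized signal of 7 striated muscle probes (horizontal axis, log scale), 1 point per array, WT in blue and LivPGC-1α in red. WT 1 is high on both, at 5630 and 99224, whereas LivPGC-1α 1 is high only for miR-10b, at 3814.

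Both arrays numbered 1, looked at together because miR-10b was bright on them, were the brightest pair for 10 of 513 tested probes. Ties were given to the earlier array. Only for miR-10b was their gap to the next array as wide as 0.999 on the log2 scale. In the other 9 of these probes, among them miR-1 and miR-211, it was under 0.04, and it was 0 where another array tied, as for miR-22.

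For miR-196a no difference beyond the spread of the animals was found. Its signal was 8127, 9603, 9219, 8127 and 7737 on WT 1 to WT 5 and 8514, 8514, 8127, 9077 and 9219 on LivPGC-1α 1 to 5. The LivPGC-1α values lay within the WT range. WT livers averaged 8563 ± 802 and LivPGC-1α livers 8690 ± 449 (both SD, n = 5), a log2 change of 0.02 ± 0.07 (SE, limma, adjusted p = 0.945, exact permutation p = 0.754). The 95% confidence interval of the ratio was 0.918 to 1.13. On WT 1, with its muscle signal, miR-196a was within the range of the other animals.

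For miR-196b, detected on all 10 arrays, no difference beyond the spread was found either. Its signal was 1419, 1574, 1394, 1544 and 1444 on WT 1 to WT 5 and 1512, 1559, 1394, 1381 and 1419 on LivPGC-1α 1 to 5. The groups overlapped almost wholly. WT livers averaged 1475 ± 79.4 and LivPGC-1α livers 1453 ± 78.4 (both SD, n = 5), with a log2 change of −0.02 ± 0.05 (SE, limma, adjusted p = 0.933, exact permutation p = 0.627). The 95% confidence interval of the ratio was 0.913 to 1.06. Since the lowest detected signal of an array was between 947.5 and 1218, miR-196b stood little above that limit, on a scale from which background was not subtracted. Neither miR-196 miRNA kept its sign in every alternative.

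Whether the members of a pair changed unequally was tested on their log2 difference within each array, over 4 pairs of probes. The difference miR-10a minus miR-10b averaged 3.76 ± 0.98 for WT and 3.94 ± 0.70 for LivPGC-1α (both SD, n = 5), a shift of 0.18 ± 0.54 (SE, exact permutation p = 0.659, adjusted p = 0.659 over the 4 pairs). That between miR-196a and miR-196b was 2.53 ± 0.14 (SD) in WT and 2.58 ± 0.12 (SD) in LivPGC-1α, a shift of 0.05 ± 0.08 (SE, exact permutation p = 0.563, adjusted p = 0.659). Hence the separation of the groups in miR-10a and its absence in miR-10b were not shown to differ. The shift for the miR-10 pair turned to −0.25 without WT 1.

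The opposite arms of the hairpins gave a second readout of the same genes, for miR-10a near the detection limit. RefSeq names them the 3p strands, and they are shown because they differ in the seed, here in capitals.
miR-10a*: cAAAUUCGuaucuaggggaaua
miR-10b*: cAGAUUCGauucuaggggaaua
miR-10a* was detected on all 10 arrays, at 1121, 1164, 1089, 1218 and 1665 on WT 1 to WT 5. On LivPGC-1α 1 to 5 it was 1301, 1254, 1338, 1263 and 1246. The LivPGC-1α values lay above WT 1 to WT 4 and below WT 5, which stood apart, and the log2 change was 0.05 ± 0.11 (SE, limma, adjusted p = 0.930). Without WT 5 it was 0.16 (adjusted p = 0.131). The lowest detected signal of an array was between 947.5 and 1218, so that miR-10a* stood near that limit, without background subtraction. After normexp background correction its change was 0.17 (limma, adjusted p = 0.826).

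miR-10b* was 4465, 5284, 4290, 4146 and 3681 on WT 1 to WT 5. On LivPGC-1α 1 to 5 it was 3712, 3814, 2995, 3712 and 4619. The groups overlapped, with WT 2 as the highest and LivPGC-1α 3 as the lowest array, and the log2 change was −0.22 ± 0.12 (SE, limma, adjusted p = 0.458). Neither WT 1 nor LivPGC-1α 1, the animals with bright miR-10b, was the highest for its other arm. The within-array difference between the arms shifted by 0.15 ± 0.13 (SE, exact permutation p = 0.333) for miR-10a and by 0.24 ± 0.53 (SE, exact permutation p = 0.627) for miR-10b, both at an adjusted p of 0.659. The shift for miR-10a was 0.0355 without WT 5 and 0.22 without WT 3 (exact permutation p = 0.0714), and 0.25 without normalization or scaled by the 75th percentile (exact permutation p = 0.0556). It was 0.04 after normexp background correction. That for miR-10b was 0.65 without WT 1 and −0.0406 without LivPGC-1α 1. miR-196a* was detected on no array and was not tested, and no probe carries the name miR-196b*.

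miR-615, encoded within Hoxc5, is another miRNA of the Hox clusters, with probes for both arms. miR-615-3p averaged 27741 ± 818 in WT livers and 29247 ± 1259 in LivPGC-1α livers (both SD, n = 5), a log2 change of 0.08 ± 0.04 (SE, limma, adjusted p = 0.382). Of the alternatives, only the scaling by the 75th percentile of all probes took it past the threshold (0.18, adjusted p = 0.0276). miR-615-5p averaged 1849 ± 121 in WT livers and 1900 ± 83.0 in LivPGC-1α livers (both SD, n = 5), a log2 change of 0.04 ± 0.05 (SE, limma, adjusted p = 0.776). Of the 4 tested probes of this group (both miR-10 passenger strands and both arms of miR-615), 3 lay above 0. Over all tested probes, 292 of 513 did. In this group 0 were called, 0 had an unadjusted p under 0.05 and the median was 0.05, against 0.01 over all tested probes.

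**Figure D4:**
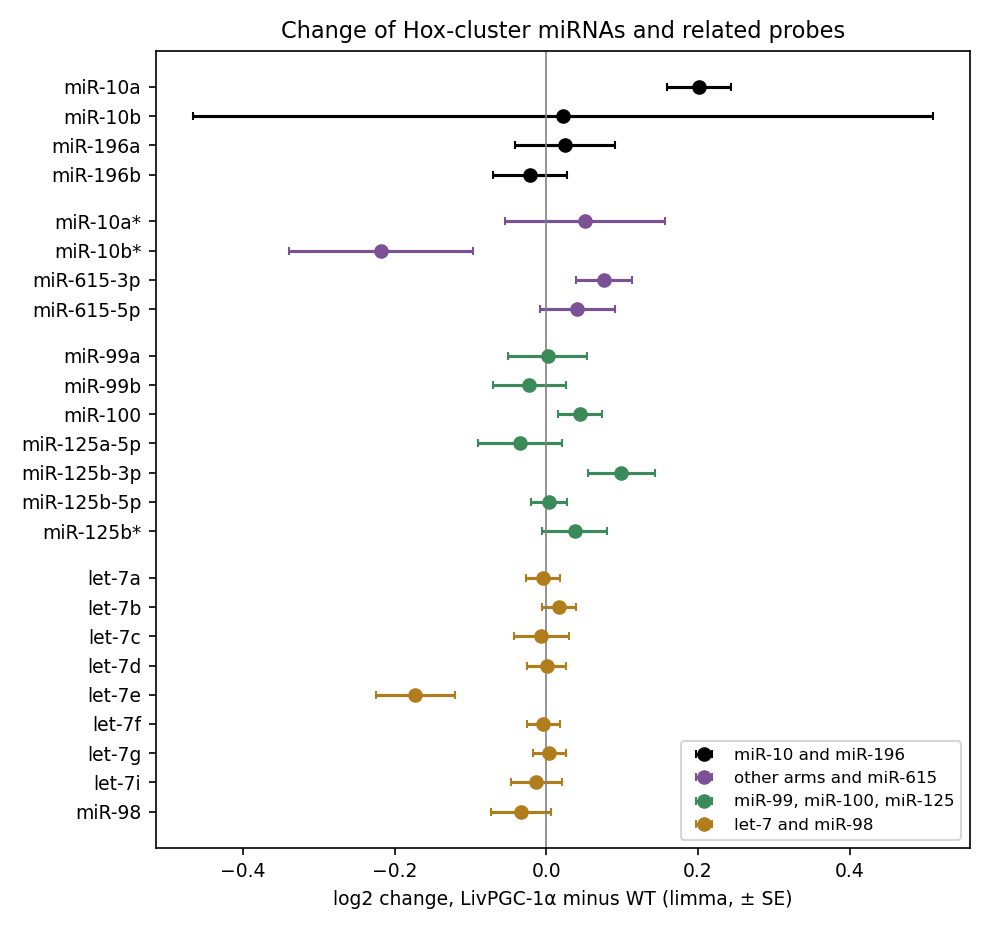
Log2 change (LivPGC-1α minus WT, horizontal axis) with its standard error from limma for the 4 Hox-cluster miRNAs in black, the other arms and miR-615 in purple, the miR-10 relatives in green and let-7 with miR-98 in brown. miR-10a is at 0.20 and miR-10b has the widest error, 0.49.

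miR-99, miR-100 and miR-125 are held to share ancestry with miR-10, and the sequence of miR-100 is shown for comparison.
miR-100: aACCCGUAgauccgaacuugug
Bases 7 to 17 of miR-10a recur as bases 6 to 16 of miR-100, but the seeds differ. Of 9 probes for these relatives 7 were tested, 5 of them above and 2 below 0, and 0 were called or passed at an unadjusted p under 0.05. Their median log2 change was 0.00, with miR-125b-3p the nearest to a call (0.10 ± 0.04 SE, limma, adjusted p = 0.334). That probe stood near the detection limit, averaging 1088 in WT and 1165 in LivPGC-1α, and was detected on 4 of 5 arrays of each group. The brightest, miR-125b-5p, was at 0.00 ± 0.02 (SE, limma, adjusted p = 0.985). miR-100, at 19546 ± 177 in WT livers and 20168 ± 685 in LivPGC-1α livers (both SD, n = 5), had a log2 change of 0.04 ± 0.03 (SE, limma, adjusted p = 0.513).

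The seed of miR-196 recurs 1 base further in, at bases 3 to 9, in 9 mature mouse miRNAs, namely let-7a, b, c, d, f, g and i, miR-98 and miR-1961. All 9 probes for let-7 guide strands and miR-98 were tested, 3 above and 6 below 0, with 0 called, 1 lower at an unadjusted p under 0.05 and a median of −0.00. let-7e, the one lower, which does not hold that stretch at these bases, had the smallest p of this list, with a log2 change of −0.17 ± 0.05 (SE, limma, adjusted p = 0.145). let-7f, the brightest, was at −0.00 ± 0.02 (SE, adjusted p = 0.967).

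The probes whose values over the 10 arrays were most like each Hox-cluster miRNA are given as a description, since each was among the highest of 511 or 512 correlations and carries no test. For miR-10a they were miR-681 (Pearson r = 0.90, Spearman rho = 0.96), miR-92a (r = 0.88, rho = 0.88) and a provisional sequence with no miRNA name (r = 0.81, rho = 0.92). Like miR-10a, these probes were higher in LivPGC-1α without being called (log2 changes of 0.14, 0.08 and 0.57, limma, adjusted p = 0.145, 0.284 and 0.122). A correlation over both groups does not separate this from likeness within a group. For miR-10b they were miR-1 (r = 0.79, rho = 0.78), miR-133a* (r = 0.78, rho = 0.70) and miR-149 (r = 0.77, rho = 0.38), of which the first and second are muscle miRNAs. Without WT 1 and LivPGC-1α 1 these fell to r = 0.51, 0.63 and 0.20. For miR-196a they were miR-1192 (r = 0.94, rho = 0.91), miR-375 (r = 0.90, rho = 0.93) and miR-34b-5p (r = 0.88, rho = 0.88). For miR-196b they were miR-293* (r = 0.91, rho = 0.83), miR-469 (r = 0.89, rho = 0.94) and another provisional sequence (r = 0.88, rho = 0.81). Some of these correlations run mostly over values not above background, since miR-1 was detected on 1 of 10 arrays (WT 1), miR-469 on 1 and the provisional sequence beside it on 2, while the other 9 probes were detected on all 10. The other arm of each miRNA was left out of this search, and no member was among the 3 nearest of another.

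**Figure D5:**
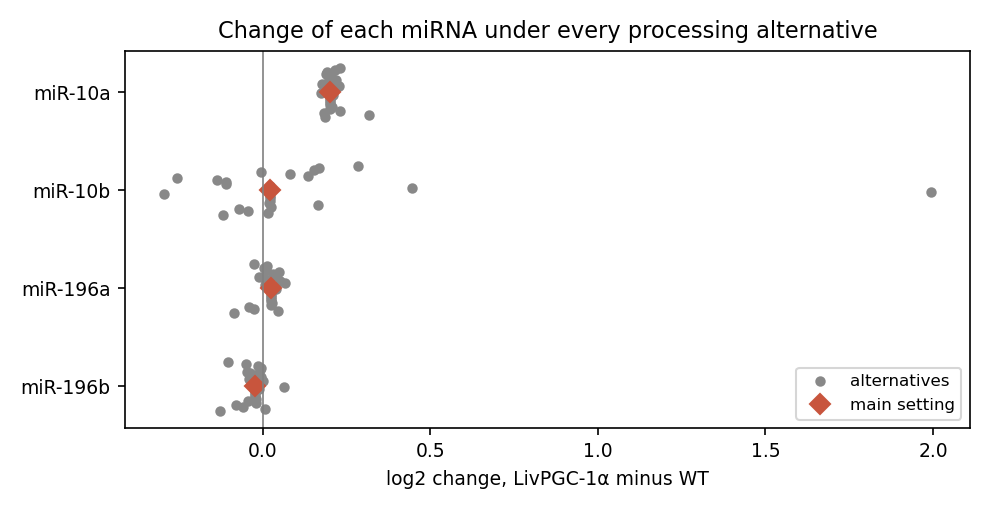
Log2 change (LivPGC-1α minus WT, horizontal axis) of the 4 Hox-cluster miRNAs in the main setting (red diamonds) and under each processing alternative or left-out array (grey points). miR-10a stays between 0.17 and 0.32, whereas miR-10b spreads from −0.30 to 1.995, the latter with a term for chip section, which largely follows genotype.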

How the data were processed

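The authors hybridised total liver RNA to Illumina Universal BeadChips and read them on an iScan scanner. With GenomeStudio (version not given in the sources used here) they obtained 1 value per probe, and the authors deposited these signal intensities without background subtraction, with a detection p-value for each. The authors also deposited their quantile-normalized intensities, and 97.6% or more of their values per array lay within 1% of those computed here.

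The deposited intensities were quantile-normalized over 655 probes and log2-transformed. The 513 probes with a detection p of at most 0.01 on at least 1 array were compared with limma 3.58.1 in R 4.3.3 (lmFit, eBayes, no covariate), adjusted by Benjamini-Hochberg over these probes and called at an adjusted p under 0.05. In simulated data with a log2 change of 1, 54 of 60 changed probes among 513 were recovered. That change is far larger than those of the 4 members in the main setting. The simulation therefore does not tell how often changes of their size would be found. Single values were compared by exact two-sided permutation over arrays. The number of arrays limits precision, and log2 changes had a median standard error of 0.0655. The miRNAs named are the 4 members, the other arms and Hox-hosted probes, the member of each related list with the smallest p and the brightest, and the 3 probes most correlated with each member. Any other was chosen after its values were seen. The members and lists were chosen with earlier results of these data known. The summed levels of the marker lists, besides those given in the report, ranged between 264879 and 287688 for smooth muscle, fibroblasts and stellate cells, 103297 and 106891 for endothelium, 100281 and 126222 for erythroid cells, and 62182 and 74298 for epithelium, with all their probes detected on all arrays. Sequences and neighbouring genes come from RefSeq tables of GRCm38.p6, in which all 4 members matched.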

Additional observations from a re-analysis of the deposited data

Results flagged for a closer look

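In a group of 5 arrays, 1 animal was taken to stand apart when its gap to the nearest other exceeded 0.71 of the group's range, on log2 values (for marker lists, on the mean log2 deviation of the probes). Of 40 such checks on the values described here, 7 met this, where 1 in 20 would by chance, or about 2. The checks overlap, since they use the same animals.

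In WT, animal 1 stood apart as high in miR-10b (gap of 0.726 of the range) and in the difference miR-10b minus miR-10b* (0.892), and as low in miR-10a minus miR-10b (0.746). The same animal stood apart in the striated muscle probes (0.902) and in the erythroid probes (0.755). WT 5 stood apart as high in miR-10a* (0.736), and WT 3 as high in the X-linked testis probes (0.897). For miR-10b the gap of LivPGC-1α 1 was 0.611 of the range on log2 values, below the limit, and 0.737 on the linear signals, above it. None of the causes was tested.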

How the results depend on the processing

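Of 26 alternatives, 24 left miR-10a not past the threshold with the same sign. The changes of miR-10b, miR-196a and miR-196b passed in none, but their signs turned in 9 of 25, 5 of 26 and 3 of 26 (requiring detection on all 10 arrays removes miR-10b). Scaled by the 75th percentile of the probes that all arrays detected, the changes were −0.12 for miR-10b, −0.0871 for miR-196a, −0.0678 for miR-10a* and −0.0952 for miR-615-5p, and the list medians were −0.0815 (other arms and Hox-hosted) and 0.0322 (let-7). With that percentile over all probes they were 0.32 for miR-10a, 0.006 for miR-196b, 0.18 for miR-615-3p, 0.11 for the miR-10 relatives and 0.17 for let-7, with 80 probes called. With cyclic loess they were −0.0432 for miR-10b, −0.025 for miR-196a, −0.0014 for miR-10a*, −0.0179 for miR-615-5p and −0.0097 for the Hox-hosted list, with 1 called. Without normalization they were −0.0716, −0.0399, −0.0206 and −0.048 for these miRNAs, −0.0343 for that list and 0.0794 for let-7, with 1 called.

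With array weights miR-10b was at −0.30. With a linear term for chip section miR-10b was at 1.995 ± 0.70 (SE, limma, adjusted p = 0.696), miR-196b at 0.0623, miR-10a* at −0.22 and the Hox-hosted list at −0.0135, with 0 called and 23 higher and 13 lower probes at an unadjusted p under 0.05. Chip section largely follows genotype, so this fit carries a trend within the groups across from one group to the other. The arrays with bright miR-10b, WT 1 and LivPGC-1α 1, lay on the first section of their groups. With a variance trend and robust eBayes 1 was called. No label says whether the replicate numbers pair the animals, and the data do not show that they do. The correlation of same-numbered deviations from the group means ranged from −0.37 to 0.33, and 1 of 5 WT arrays matched its own number best. So few arrays cannot settle whether there was a pairing. With the replicate number as a block 0 were called, miR-10a differed by 0.20 ± 0.05 (SE, adjusted p = 0.195) and 41 higher and 18 lower probes reached an unadjusted p under 0.05. Without WT 1 and LivPGC-1α 1 together, and without WT 1, WT 3 and WT 5 together, both chosen after seeing the data, 0 were called, with 61 and 54 at an unadjusted p under 0.05. In the former miR-196b was at −0.0502, and in the latter miR-196b was at −0.10, miR-196a at −0.0253 and miR-10a minus miR-10b at −0.0564.

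Leaving out 1 animal at a time gave 0 to 3 calls (0 without WT 2 and without WT 5, where 85 and 72 had an unadjusted p under 0.05), 0.18 to 0.23 for miR-10a, −0.26 to 0.45 for miR-10b, −0.0106 to 0.0674 for miR-196a and −0.0475 to 0.0022 for miR-196b. It gave −0.25 to 0.48 for miR-10a minus miR-10b, 0.0355 (without WT 5) to 0.22 for miR-10a minus miR-10a* and −0.0406 to 0.65 for miR-10b minus miR-10b*. The share of higher among probes at an unadjusted p under 0.05 was 54 of 74 in the main setting, 11 of 97 with the percentile over detected probes and 156 of 168 with that over all probes.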
